A study of Mus musculus with 6 samples.

Results

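Messenger RNA levels of the enzymes that write and remove DNA methylation were compared between mouse macrophages given extra miR-342-3p and control cells. The 10 genes were chosen by name, with earlier results of these data known. They were the methyltransferases Dnmt1, Dnmt3a and Dnmt3b, methylation-guiding proteins Uhrf1 and Uhrf2, dioxygenases Tet1, Tet2 and Tet3, and DNA glycosylases Tdg and Mbd4. Of these, 9 had a probe set annotated to that gene alone and were tested among 19938 genes. Tdg was left out of the tests because each of its 4 probe sets is also annotated to the pseudogene Tdg-ps2.

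All samples came from RAW264.7, an established line of mouse macrophage-like cells. They received either a mimic of miR-342-3p, a synthetic double of the mature microRNA, or a negative control mimic, so that both arms share the transfection itself. RNA was isolated 18 h later, and 150 ng of each sample was labelled for 1 whole-transcript Affymetrix array, with 3 arrays in each group. The samples of a group came from independent experiments within the same cell line. Levels are log2 values after normalization, so a difference of 1 is a doubling.

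In dividing cells, DNA replication leaves the methyl groups of CpG sites on the parental strand only. UHRF1 binds such hemimethylated sites and brings in DNMT1, which copies the mark, while DNMT3A and DNMT3B set methyl groups at sites that had none. TET proteins oxidize 5-methylcytosine, and TDG and MBD4 are glycosylases that cut out altered bases opposite guanine so that base excision repair can restore an unmethylated cytosine.

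The mature microRNA that the mimic carries is shown because it defines the treated group. It is read from RefSeq, build GRCm38.p6, plus strand, chr12:108658680-108658702, and capitals mark the seed, bases 2 to 8.
mmu-miR-342-3p: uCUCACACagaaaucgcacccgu

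Array medians spanned 0.15 on the log2 scale, and the third miR-342-3p array lay closest to the controls. Its correlation with control arrays over all genes was 0.996, against 0.985 to 0.988 for the other miR-342-3p arrays and 0.998 to 0.999 among controls. Among the miR-342-3p arrays it was 0.991 to 0.993, so the third array was closer to the controls than to its own group. Estimated array weights, lower for noisier arrays, were 0.235, 0.354 and 0.925 for miR-342-3p replicates 1, 2 and 3 and 1.69 to 3.36 for controls. Genes were called at a false discovery rate (FDR, Benjamini-Hochberg adjustment of limma p-values over all genes) under 0.1, which gave 1479 genes lower and 825 higher with miR-342-3p. With each array centred on its median these counts were 2009 and 376, and with quantile normalization repeated 1453 and 1414. Macrophage markers were present, with 9 of 10 above the median level of all genes, and Mrc1 was below it. Of them, Itgam (log2 fold change -0.35, limma FDR 0.064) and Fcgr1 (-0.35, FDR 0.036) were called lower and Spi1 (0.35, FDR 0.044) higher, and the log2 of their summed level was 14.54 to 14.58 in controls and 14.48 to 14.57 with miR-342-3p. The T cell markers (0 of 4) and B cell markers (0 of 2 measured) were not above it. Of the fibroblast markers 2 of 4 and of the epithelial markers 1 of 3 exceeded it. The fibroblast marker Pdgfra was called higher (0.49, FDR 0.031) and lay below the median level. The log2 of the summed level of the 4 fibroblast markers was 9.09 to 9.14 in controls and 9.23 to 9.56 with miR-342-3p. Median log2 fold changes were 0.182 for fibroblast, 0.112 for T cell, 0.185 for B cell and 0.141 for epithelial markers, against 0.069 for all genes. The part of these markers in the results was not tested.

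Of the 9 DNA methylation genes, Uhrf1, Dnmt1 and Dnmt3a fell with miR-342-3p, none rose and 6 were not called. At an unadjusted limma p under 0.05 there were 4, these and Mbd4, all lower, and over all genes 13.0% were lower and 12.5% higher at that threshold. At the FDR threshold 7.42% of all genes were called lower and 4.14% higher. With only the 9969 genes above the median level fitted, 19.6% were called lower and 10.9% higher. In that fit 3 of 8 members were lower. All 3 miR-342-3p arrays lay below all 3 controls for Uhrf1, Dnmt1, Dnmt3a and Mbd4, and no member had all miR-342-3p arrays above all controls. Over all genes, non-overlapping groups occurred at 15.5% in the lower direction and at 21.4% in the higher. The median log2 fold change of the 9 genes was -0.15, against 0.069 for all genes and -0.024 for genes above the median level.

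**Figure D1:**
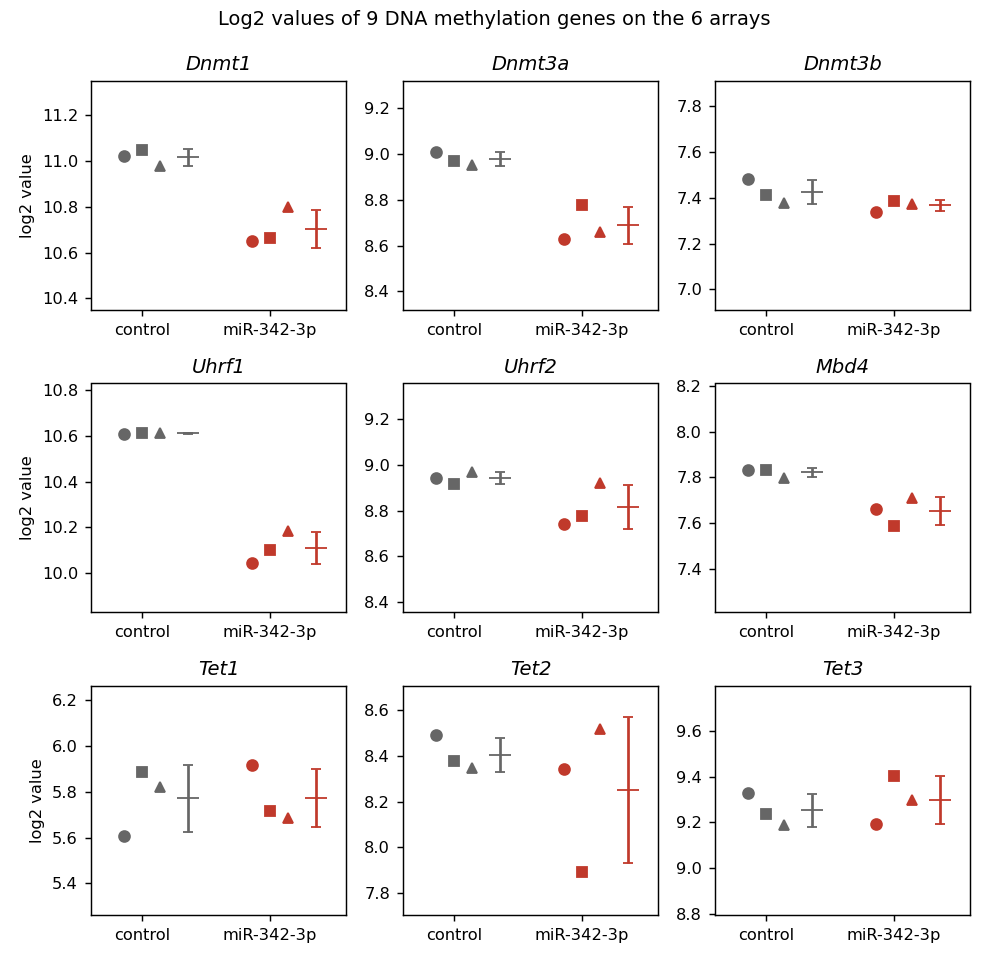
Log2 value (vertical axis) of each of the 9 measured DNA methylation genes on the 6 arrays, with controls in grey and miR-342-3p in red; circles, squares and triangles are replicates 1, 2 and 3, bars give mean ± SD (n = 3), and every panel spans the same range of 1 log2 unit. The groups are separated for Uhrf1, Dnmt1, Dnmt3a and Mbd4 and overlap for the other 5 genes.

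Uhrf1, whose protein recognizes hemimethylated CpG sites and histone H3 tails, had the largest change of the 9 genes. Its log2 level was 10.61 on each of the 3 control arrays and 10.04, 10.10 and 10.19 on the miR-342-3p arrays. The groups were well apart, with the distance between them several times the spread within either group. The mean went from 10.61 ± 0.00136 to 10.11 ± 0.071 (SD, n = 3 each). This is a log2 fold change of -0.50 (SE 0.074, 95% confidence interval -0.67 to -0.33, limma FDR 0.015), and the level fell by 29.3%. The spread among controls was very small, and the SE, which limma moderates with the spread of all genes, does not rest on it alone.

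Dnmt1, the maintenance methyltransferase, fell by 19.5%. Its log2 level was 11.02, 11.05 and 10.98 on the control arrays and 10.65, 10.66 and 10.80 on the miR-342-3p arrays. The third miR-342-3p array was the nearest to the controls, and the groups did not overlap. The means were 11.02 ± 0.036 and 10.70 ± 0.082 (SD, n = 3 each), with a log2 fold change of -0.31 (SE 0.077, 95% confidence interval -0.49 to -0.14, limma FDR 0.054).

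Dnmt3a, a de novo methyltransferase that is also expressed in differentiated cells, fell by 18.2%. It had log2 levels of 9.01, 8.97 and 8.95 on the control arrays and 8.63, 8.78 and 8.66 on the miR-342-3p arrays. Here the second miR-342-3p array was the nearest to the controls, again without overlap. The means were 8.98 ± 0.029 and 8.69 ± 0.080 (SD, n = 3 each), with a log2 fold change of -0.29 (SE 0.076, 95% confidence interval -0.46 to -0.12, limma FDR 0.064).

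The calls of Dnmt1 and Dnmt3a each depended on all 3 controls. Without control 1, 2 or 3 the limma FDR was 0.216, 0.227 or 0.193 for Dnmt1 and 0.255, 0.228 or 0.223 for Dnmt3a, whereas Uhrf1 stayed under 0.1 without any 1 array (FDR 0.00661 to 0.0998). Fewer genes of all 19938 were called lower without 1 control as well, 102 to 140.

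**Figure D2:**
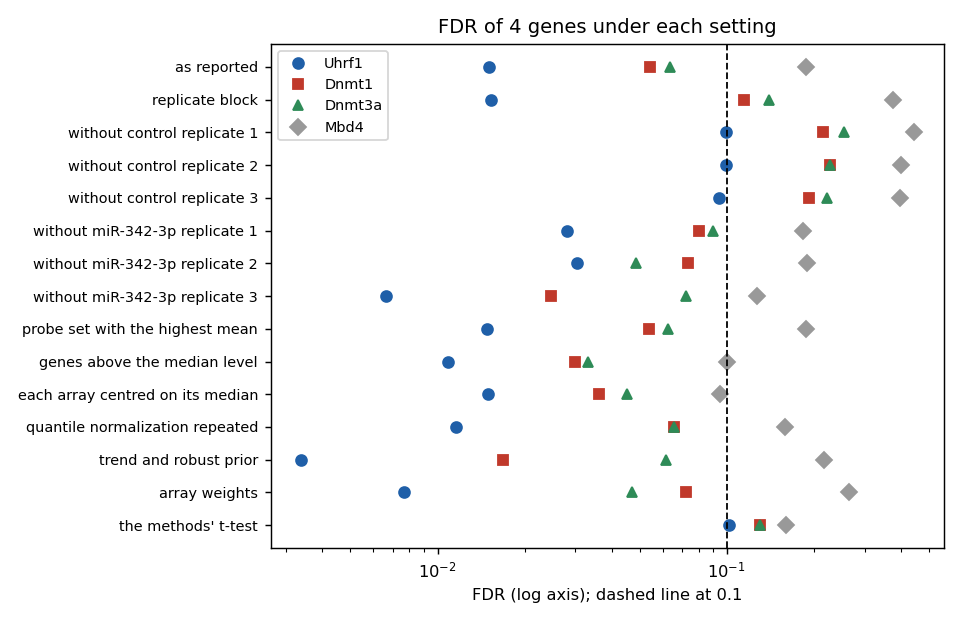
FDR (horizontal, logarithmic axis) of Uhrf1, Dnmt1, Dnmt3a and Mbd4 under the reported fit and each alternative that gives a new FDR (rows), with the threshold of 0.1 dashed. Uhrf1 lies left of the line in all rows but the lowest (0.102), while Dnmt1 and Dnmt3a lie right of it in that row, with the replicate block and without any 1 control.

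The paralogues of these genes were not called. Dnmt3b, the second de novo methyltransferase, had log2 levels of 7.48, 7.41 and 7.38 in controls and 7.34, 7.39 and 7.38 with miR-342-3p. The groups overlapped, and the log2 fold change was -0.057 (SE 0.072, 95% confidence interval -0.22 to 0.11, limma FDR 0.609). Uhrf2, which shares the domain layout of UHRF1, had log2 levels of 8.94, 8.92 and 8.97 in controls and 8.74, 8.78 and 8.92 with miR-342-3p. Replicates 1 and 2 were below all controls and replicate 3 reached into their range, for a log2 fold change of -0.13 (SE 0.079, 95% confidence interval -0.31 to 0.050, limma FDR 0.314).

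Whether paralogues differed in their response was compared within each array for 4 pairs. The log2 difference between Uhrf1 and Uhrf2 was lower on every miR-342-3p array than on every control, with shifts of -0.41 to -0.34 from the control mean on the single arrays. Its shift of -0.37 was larger than the spread (SD 0.024 in controls and 0.031 with miR-342-3p). The difference between Dnmt3a and Dnmt3b likewise shifted without overlap, by -0.23 (SD 0.024 and 0.062). In both cases the exact two-sided permutation test gave 0.1, the smallest p that 3 against 3 arrays allow, or 0.2 after adjustment over the 4 pairs. Neither pair therefore reached a threshold of 0.05, which this design cannot reach. The difference between Dnmt1 and Dnmt3a had a mean shift of -0.023, with values of -0.15 to 0.10 on the single miR-342-3p arrays (SD 0.036 in controls and 0.13 with miR-342-3p, exact permutation p = 0.8, adjusted p = 0.8), which does not show that both genes changed alike.

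None of the TET genes was called. Tet2, the member most often mutated in myeloid malignancies, had log2 levels of 8.49, 8.38 and 8.35 in controls and 8.34, 7.89 and 8.52 with miR-342-3p. The miR-342-3p arrays ran from the lowest to the highest of the 6 values, and the log2 fold change of -0.15 (SE 0.15, 95% confidence interval -0.48 to 0.18, limma FDR 0.494) rested on the second of them. Without that array it was 0.024. Tet3 had log2 levels of 9.33, 9.24 and 9.19 in controls and 9.19, 9.40 and 9.30 with miR-342-3p. The groups overlapped (log2 fold change 0.045, SE 0.084, 95% confidence interval -0.15 to 0.24, limma FDR 0.736), and the sign turned without miR-342-3p replicate 2 (-0.0079) and with centred arrays (-0.026).

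Tet1, which is best known from embryonic stem cells, was the member whose level lay below the median of all genes. Its log2 level was 5.61, 5.88 and 5.82 in controls and 5.92, 5.72 and 5.68 with miR-342-3p, with a difference of 0.0030 (SE 0.10, 95% confidence interval -0.23 to 0.23, limma FDR 0.986). The other probe sets of Tet1 differed by 0.0055 and 0.15, and the second probe set of Tet3 by -0.013. The difference between Tet2 and Tet3 shifted by -0.20 within arrays, with an SD of 0.40 over the miR-342-3p arrays (exact permutation p = 0.8, adjusted p = 0.8), and by 0.032 without miR-342-3p replicate 2.

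Mbd4, the glycosylase that also carries a methyl-CpG-binding domain, was not called although its groups were separate. It measured 7.83, 7.83 and 7.80 in controls and 7.66, 7.59 and 7.71 with miR-342-3p on the log2 scale. All miR-342-3p arrays were lower, with differences of -0.24 to -0.11 from the control mean. The log2 fold change was -0.17 (SE 0.073, 95% confidence interval -0.34 to -0.0043, limma FDR 0.188), and with centred arrays its FDR was 0.095. For Tdg, the 4 probe sets it shares with Tdg-ps2 ranged from 9.61 to 10.07 in controls and from 8.96 to 9.68 with miR-342-3p. Within each of these probe sets every miR-342-3p array lay below every control, with mean differences of -0.66 to -0.46. These signals cannot be assigned to Tdg or to the pseudogene and were not tested.

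Proteins that work beside DNMT1, DNMT3A and UHRF1 were examined with related genes as a list of 15 genes. The related genes include Trdmt1, whose product methylates tRNA. Of these 7 were called lower and 0 higher, beside the 7.42% and 4.14% of all genes, and the list median was -0.12 against 0.069 for all genes. The 7 include Trdmt1 (log2 fold change -0.38, limma FDR 0.065). With only genes above the median level fitted, 7 of 12 were lower, beside 19.6% of such genes. Hells, the chromatin remodeller that opens nucleosomal DNA to methyltransferases, had the largest fitted change. Log2 levels of Hells were 9.49, 9.50 and 9.55 in controls and 8.33, 7.70 and 9.06 with miR-342-3p. The miR-342-3p arrays were lower but widely spread, with a log2 fold change of -1.15 (SE 0.27, limma FDR 0.050). Without the second it was -0.82 and without the third -1.50, and the call was lost without any 1 control or miR-342-3p replicate 1 (FDR 0.131 to 0.168).

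Cdca7, the DNA-binding partner of HELLS, was more even over the arrays. Its log2 level was 10.29, 10.29 and 10.25 in controls and 9.53, 9.87 and 9.73 with miR-342-3p (log2 fold change -0.57, SE 0.096, limma FDR 0.020). Kdm1a, a histone demethylase whose loss destabilizes DNMT1, was between 9.88 and 10.01 in controls and 9.17, 9.48 and 9.42 with miR-342-3p (log2 fold change -0.61, SE 0.097, limma FDR 0.018). Lig1, the replicative ligase that UHRF1 binds, was at 9.80, 9.79 and 9.77 in controls and 9.27, 9.47 and 9.42 with miR-342-3p (log2 fold change -0.40, SE 0.080, limma FDR 0.030). For all 3 genes every miR-342-3p array was below every control. Without 1 control the FDR reached at most 0.112 for Cdca7, 0.108 for Kdm1a and 0.151 for Lig1, and of the 15 partners 0, 0 and 1 were called without control 1, 2 and 3.

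Among the 8 partners that were not called were Pcna, Usp7 and Dnmt3l. The log2 fold change was -0.088 (limma FDR 0.422) for Pcna, the replication clamp that DNMT1 binds. It was -0.12 (limma FDR 0.387) for Usp7, the deubiquitinase of DNMT1 and UHRF1, and 0.25 (limma FDR 0.162) for Dnmt3l, the inactive cofactor of the de novo enzymes.

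**Figure D3:**
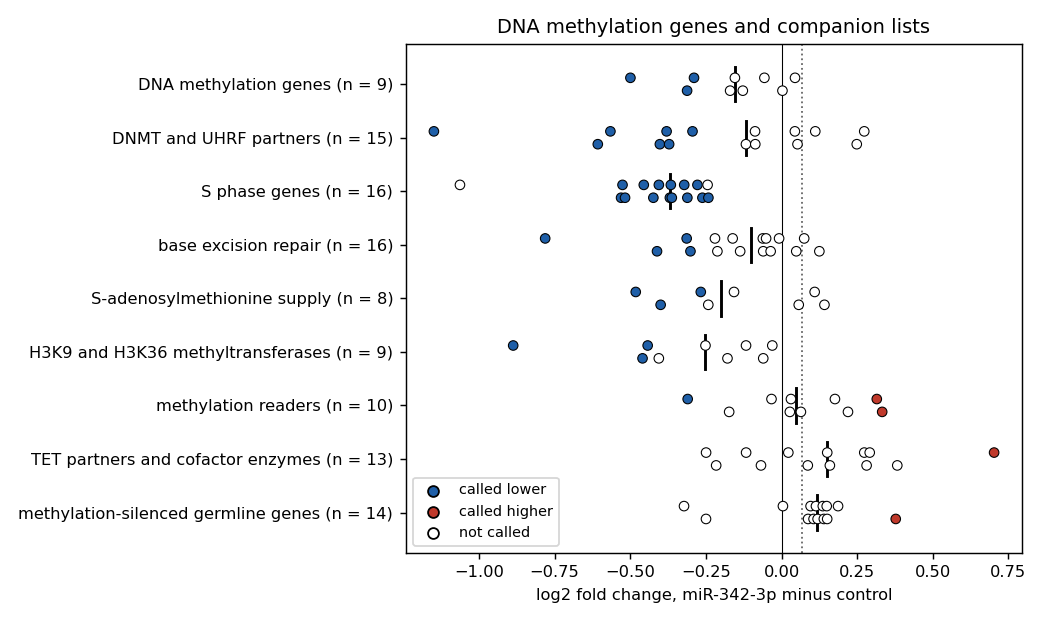
Log2 fold change (horizontal axis, miR-342-3p minus control) of each measured gene in the DNA methylation group and 8 companion lists; blue points were called lower, red higher and open points were not called, black bars are list medians and the dotted line is the median of all genes, 0.069. Blue points make up 14 of 16 S phase genes, 7 of 15 partners and 3 of 9 DNA methylation genes. They also make up 3 of 8 methyl donor genes, 3 of 9 histone methyltransferases, 4 of 16 repair genes and 1 of 10 readers. Of all genes 7.42% were called lower. The 3 red-bearing lists are readers with related genes, TET partners and germline genes.

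Base excision repair, to which the glycosylases TDG and MBD4 hand over, was represented by 16 measured genes, other glycosylases among them. Of these genes 4 were called lower and 0 higher (median -0.099), beside the 7.42% and 4.14% of all genes. They were Neil3, a glycosylase of oxidized bases (log2 fold change -0.78, limma FDR 0.018), Parp1, the strand-break sensor (-0.41, FDR 0.056), Apex2, an abasic-site endonuclease (-0.31, FDR 0.066), and Polb, the gap-filling polymerase (-0.30, FDR 0.079). With only genes above the median level fitted, 4 of 12 repair genes were lower, beside 19.6% of such genes. TET partners and cofactor enzymes had 0 of 13 called lower and 1 higher (median 0.15), beside the same shares of all genes. With only genes above the median level fitted, 2 of 10 were lower and 1 higher, beside 19.6% and 10.9%. The gene called higher was Gadd45a, a stress-induced gene linked to active demethylation, at 7.71 to 7.78 in controls and 8.24, 8.69 and 8.40 with miR-342-3p (log2 fold change 0.70, SE 0.11, limma FDR 0.019, and 0.101 without control 1 or 2). Ogt, the glycosyltransferase that binds TET2 and TET3, was not called (-0.12, FDR 0.398).

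On the list of methylation readers and related genes 7 of 10 were not called, 1 was called lower and 2 higher (median 0.048), beside the 7.42% and 4.14% of all genes. Zbtb33, which encodes the reader Kaiso, fell (log2 fold change -0.31, limma FDR 0.069), and Mbd6 (0.33, FDR 0.047) and Gatad2b, a subunit of the NuRD repressor complex (0.31, FDR 0.046), rose. Mbd6 and Gatad2b are on this list by family or complex and not as readers of methylated CpG. Of 8 measured genes that supply and recycle the methyl donor S-adenosylmethionine, 3 were called lower and 0 higher (median -0.20). These were Adk, which clears adenosine (-0.48, FDR 0.069), Mtr, methionine synthase (-0.40, FDR 0.048), and Ahcyl2, a relative of the S-adenosylhomocysteine hydrolase (-0.27, FDR 0.082).

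Histone H3K9 and H3K36 methyltransferases, whose marks guide UHRF1 and DNMT3A, had 3 of 9 called lower and 0 higher (median -0.25). Over all genes these shares were 7.42% and 4.14%. With only genes above the median level fitted, 4 of 8 were lower, beside 19.6% of such genes. Setd2 had the largest value (log2 fold change -0.89, limma FDR 0.093), followed by Nsd2 (-0.46, FDR 0.046) and Suv39h2 (-0.44, FDR 0.077). The value of Setd2 was uneven over the arrays, at 7.21, 6.94 and 8.21 with miR-342-3p against 8.32 to 8.35 in controls, and its call held under 4 of 15 alternatives. Germline genes that promoter methylation keeps silent in somatic cells were at low levels, with 1 of 14 above the median of all genes. Of these, 0 were called lower and 1 higher, Asz1 (0.38, FDR 0.067), beside the 4.14% of all genes called higher. The list median was 0.12, and the median over all genes was also positive, 0.069, against -0.024 for genes above the median level. The germline median was not set against genes of a like low level, and a rise of this list was not tested. Without any 1 control, 0 genes of the reader, methyl donor, histone methyltransferase and germline lists were called, and 1 of the repair genes. DNA methylation itself was not measured on these arrays.

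Genes of S phase, in which maintenance methylation takes place, were lower on the same arrays. Of 16 such genes 14 were called lower and 0 higher, and in all 16 every miR-342-3p array lay below every control, beside the 7.42% and 15.5% of all genes. All 16 were above the median level, and with only such genes fitted 15 were lower, beside 19.6% of them. The largest called changes were those of Tyms, thymidylate synthase (log2 fold change -0.53, limma FDR 0.021), Mcm4, a subunit of the replicative helicase (-0.53, FDR 0.028), Rrm2, a subunit of ribonucleotide reductase (-0.52, FDR 0.019), and Ccne2, cyclin E2 (-0.46, FDR 0.070). Without control 1, 2 or 3 only 1, 0 or 0 of them passed. The list median was -0.46, -0.34 and -0.28 on miR-342-3p replicates 1, 2 and 3. Beside it, Uhrf1 differed from the control mean by -0.57, -0.51 and -0.42 on the same arrays, Dnmt1 by -0.37, -0.35 and -0.22, and Dnmt3a by -0.35, -0.20 and -0.32. The part of S phase genes in the lower levels of Uhrf1, Dnmt1 and Dnmt3a was not tested, and in RNA from whole cultures fewer cells in a phase and less RNA per cell cannot be told apart.

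**Figure D4:**
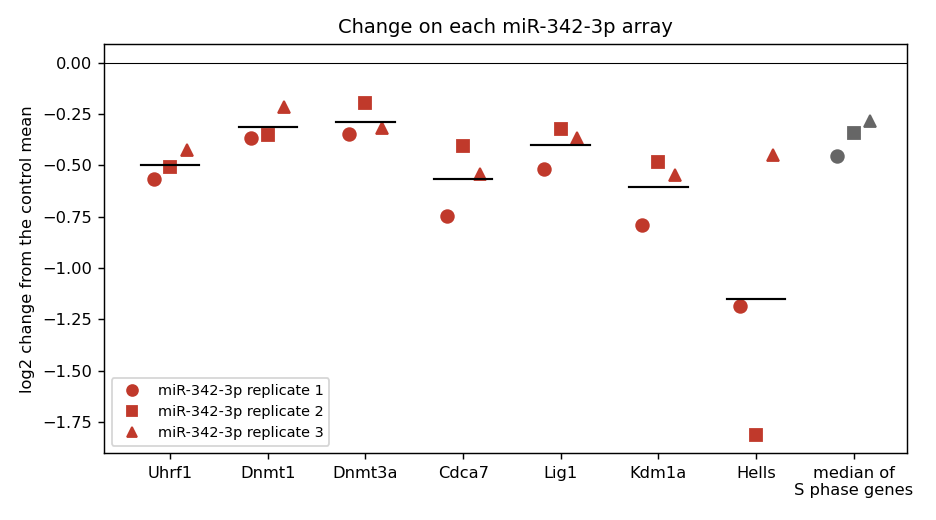
Log2 change from the control mean (vertical axis) on each of the 3 miR-342-3p arrays for Uhrf1, Dnmt1, Dnmt3a and 4 partner genes in red, with the mean change as a black bar, and the median of 16 S phase genes in grey. All points lie below 0, and Hells spreads the most, from -1.81 to -0.45.

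Promoter sequences were read because S phase genes are classical targets of E2F factors, whose binding letters can be looked for in the members. RefSeq windows of 300 bases, 250 before to 50 after an annotated start (build GRCm38.p6), were given for all 10 members, 15 windows in all. The letters TTTCCCGC, TTTGGCGC, TTTCGCGC and TTTGCCGC were searched on both strands, and 2.26% of all 32851 windows held at least 1 of them. Among the members they occurred in 2 windows, 1 of Uhrf1 and 1 of Dnmt1, and in no window of Dnmt3a, Dnmt3b, Uhrf2, Tet1, Tet2, Tet3, Tdg or Mbd4. Beyond the members, windows were read singly only for Hells, Cdca7, Lig1 and Kdm1a, the partners with the largest called falls. The letters occurred in a window of Hells, Cdca7 and Lig1, and not in that of Kdm1a. Windows of the other partners and of the S phase genes were not read singly. These matches therefore give no share of partners or S phase genes with the letters. A match is a description of letters and not a measured binding site. Each of these strings contains CpG, and the median CpG count was 7 over all windows and 26 in the members' windows. The 2.26% is therefore not matched for CpG content, and whether the members exceed a matched share was not tested.

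The stretch before the second annotated start of Uhrf1 is shown whole because Uhrf1 had the largest change among the members. It lies on the plus strand at chr17:56304063-56304312, and its start is 976 bases downstream of the first annotated one. Capitals mark the E2F letters, 185 bases before the start, and the lower-case run also holds 2 CCAAT and 3 GGGCGG matches, none of which overlaps them.
Uhrf1 before the second start: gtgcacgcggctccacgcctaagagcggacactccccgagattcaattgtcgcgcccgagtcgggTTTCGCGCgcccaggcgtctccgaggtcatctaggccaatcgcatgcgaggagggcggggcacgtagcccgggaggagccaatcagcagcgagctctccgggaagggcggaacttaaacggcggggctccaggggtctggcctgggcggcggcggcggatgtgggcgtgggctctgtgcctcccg

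Short stretches around each of the other matches are given so that they can be set beside that of Uhrf1, with the E2F letters or their reverse complement in capitals. Those of Dnmt1 are on the minus strand at chr9:20952824-20952853, 219 bases before the third annotated start, and at chr9:20952574-20952601, from base 34 after it. The third start lies 356 bases downstream of the second, so these letters are not upstream of every start of Dnmt1. The plus-strand stretches are chr19:38930917-38930946 for Hells, chr2:72476137-72476166 for Cdca7 and chr7:13278841-13278870 for Lig1, the last from a match that begins 27 bases after a start.
Uhrf1: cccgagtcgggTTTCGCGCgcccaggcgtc
Dnmt1 before the start: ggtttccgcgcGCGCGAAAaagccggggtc
Dnmt1 after the start: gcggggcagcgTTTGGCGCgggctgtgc
Hells: gaccaccgggtTTTCCCGCgaaagagaagc
Cdca7: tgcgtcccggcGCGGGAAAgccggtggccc
Lig1: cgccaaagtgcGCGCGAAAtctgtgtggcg

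CpG, the dinucleotide on which the members' products act, was also counted. The 15 windows of the members held 2 (the first window of Dnmt1) to 57 (Tet2), with a median of 26, and over all windows the median was 7 and the upper quartile 20. Of the 15, 14 were above that median and 10 above that upper quartile. Dnmt3a, which was called lower, had no E2F letters in any window, and its windows held up to 7 matches of GGGCGG, the GC box, which 35.7% of all windows contain. CCAAT, the letters of the NF-Y box, stood in 37.4% of all windows and in at least 1 window of Dnmt1, Uhrf1, Tet3, Tdg and Mbd4.

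**Figure D5:**
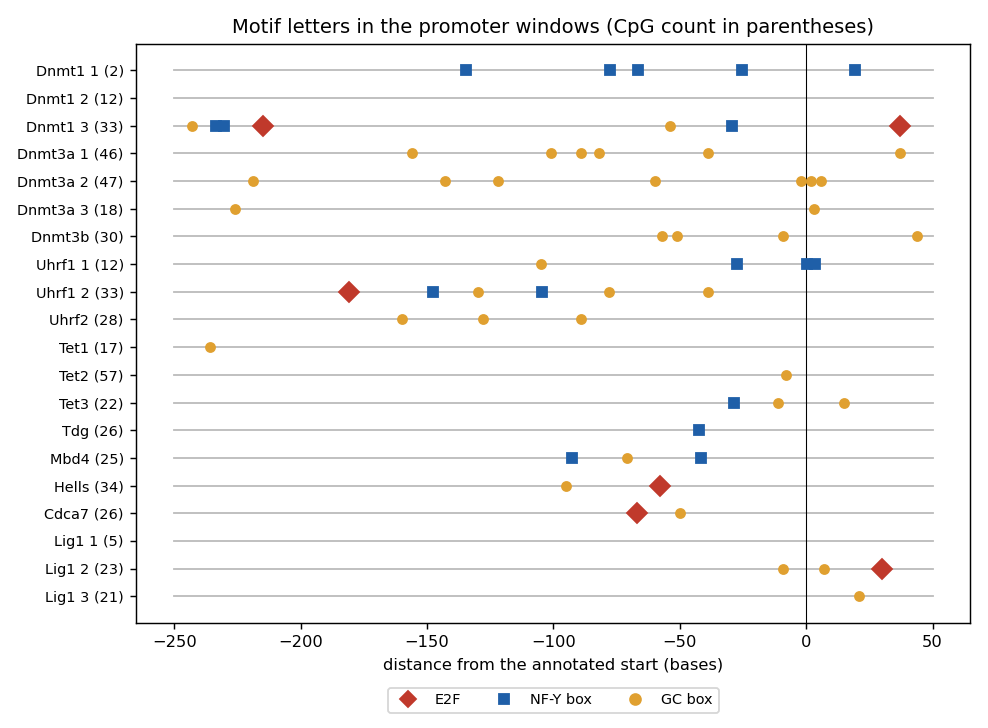
Positions of E2F, NF-Y box and GC box letters (diamonds, squares and circles) in the RefSeq promoter windows of the 10 DNA methylation genes and of Hells, Cdca7 and Lig1, as the distance in bases from the annotated start; rows are windows, numbered where a gene has several, with the CpG count in parentheses. Diamonds appear only in single windows of Uhrf1, Dnmt1, Hells, Cdca7 and Lig1. Kdm1a, whose window held no E2F letters, is not drawn, and other partners and S phase genes were not read singly.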

How the data were processed

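The authors ran RMA (background adjustment, quantile normalization, summarization) on the scans of Affymetrix mouse gene arrays and deposited log2 values for 35556 probe sets on 6 arrays. The RMA version and the genome build are not given in the sources used here. These deposited values were used without further normalization, and their array medians spanned 0.151. Groups and replicate numbers came from the sample labels.

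Probe sets were named from the platform annotation, 21789 with 1 gene and 1621 with several, which were not used. Of 999 genes with several probe sets, the one with the largest interquartile range was kept, as in the methods of the study. All 19938 genes were fitted with lmFit and eBayes of limma 3.58.1 in R 4.3.3, without covariates or a filter on level. p-values were adjusted by Benjamini-Hochberg and genes called at an FDR under 0.1. Pairs of genes were compared by exact two-sided permutation of their within-array difference. The limma fit was tested on simulated independent values with the same spread on all arrays, and the other steps were not tested in this way. The real arrays differed from this setting, with array weights of 0.235 to 0.925 for miR-342-3p and 1.69 to 3.36 for controls. The simulation does not cover such unequal spread. The number of arrays limits the precision.

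The members and lists were chosen with earlier results of these data known. All members, and in each companion list every called gene, or the 4 largest where more than 6 were called, are named, with direct partners (Hells, Usp7, Dnmt3l, Pcna, Lig1, Ogt, Cdca7). Trdmt1 is named in addition. Alternatives were the replicate block, each array left out, the probe set with the highest mean, genes above the median level, 2 other scalings, array weights, an eBayes prior with trend and robust settings, a stricter FDR and the methods' t-test. The last is the Student's t-test of the study's general statistics section, whereas the study analysed these arrays with limma. Figures were drawn with matplotlib 3.10.9 in Python 3.11.15.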

Additional observations from a re-analysis of the deposited data

How the results depend on the processing

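The count of DNA methylation genes called lower, 3, was 1 to 3 when 1 array was left out, 1 with the replicate number as a block, 1 at an FDR under 0.05 and 0 with the methods' t-test after Benjamini-Hochberg. Where 1 gene was called it was Uhrf1, and with centred arrays Mbd4 was added. The methods' t-test, which is not the study's test for these arrays, called 4 members and 4035 genes at its unadjusted threshold of 0.05. At an unadjusted limma p under 0.05 there were 4 members and 5086 genes. After adjustment the t-test called 22 genes lower and 26 higher. No member was called higher under any of the 15 alternatives. With the replicate block the FDR was 0.115 for Dnmt1 and 0.140 for Dnmt3a, and 1445 genes were lower and 550 higher. The numbers were not taken to pair the samples, as deviations of same-numbered arrays correlated at -0.308, -0.163 and -0.106. With 3 arrays in each group these values cannot exclude a pairing.

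Over all genes, calls lower and higher were 102 and 100, 115 and 88 or 140 and 94 without control 1, 2 or 3. They were 986 and 675, 1830 and 1171 or 2422 and 2104 without miR-342-3p replicate 1, 2 or 3, and 661 and 312 at an FDR under 0.05.

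Signs turned for values near 0. The log2 fold change of Tet1 was -0.080 without control 1, -0.070 without miR-342-3p replicate 1, -0.067 with centred arrays, -0.094 with quantile normalization repeated and -0.063 with array weights. Without miR-342-3p replicate 2, Tet2 was 0.024, Tet3 -0.0079, the shift between Dnmt1 and Dnmt3a 0.043 and that between Tet2 and Tet3 0.032. Tet3 was -0.026 with centred arrays. With 1 array left out the values ranged up to 0.060 for Tet1 and 0.096 for Tet3, and down to -0.29 for Tet2, -0.085 for Dnmt1 minus Dnmt3a and -0.33 for Tet2 minus Tet3. The cause was not tested. Signal over background was not used here, so low levels such as those of Tet1 and the germline genes may lie near it.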
